A study of Mus musculus with 30 samples.

Results

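Mouse multipotent progenitors are sorted from bone marrow by a small set of surface proteins, and the RNA of 7 genes that encode them was followed here: Kit, Flt3, Ly6a, Cd34, Cd48, Cd244 and Slamf1. The members were the rows with these symbols among the 24421 genes of 5 deposited tables, and all 7 were present in every table. The tables hold 30 libraries of total RNA from flow-sorted bone marrow cells, 3 in each of 10 groups: T2 and T1 MPP4 of WTiMOS mice at 24 months, T2 and T1 MPP4 of WTiMOS mice at 3 months, T2 and T1 MPP3 of WTiMOS mice at 24 months, T2 and T1 MPP3 of KOiMOS mice at 3 months, and T2 and T1 MPP3 of WTiMOS mice at 3 months. The study asked what Bcl11a does inside these cells and what its overexpression does to wild-type cells. MPP3 and MPP4 are names for myeloid-biased and lymphoid-biased multipotent progenitors. Every group carries iMOS in its genotype label. The labels do not say what T1, T2 or iMOS stand for, which promoter or Cre was used, which antibodies set the gates, or whether the 3 libraries of a group came from separate animals. The p-values set a difference of group means against the spread of libraries within groups. That spread may be only technical, so the p-values may be too small for a difference between animals. KOiMOS cells at 24 months, and KOiMOS MPP4, were not analysed here. Because proteins of this set are commonly used to draw such gates, a difference in their RNA between sorted populations may be set by the sort itself and is given as a measurement of what was sorted.

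KIT and FLT3 are related receptor tyrosine kinases that bind stem cell factor and FLT3 ligand. SCA-1, the product of Ly6a, is a lipid-anchored protein of the Ly6 family that interferon raises, and CD34 is a sialomucin. CD48, CD244 and CD150, the product of Slamf1, belong to the SLAM family of immune receptors: CD48 is the ligand of CD244 in mice, and CD150 binds itself. Together with the absence of mature lineage antigens, KIT and SCA-1 mark the compartment that holds stem cells and multipotent progenitors, CD150 and CD48 divide it, and high FLT3 sets MPP4 apart.

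The genes lie at few places in the mouse genome (GRCm38, GENCODE vM21 annotation). Kit (chr5:75574916-75656722, plus strand) and Flt3 (chr5:147330741-147400489, minus strand) are on chromosome 5, Ly6a (chr15:74994877-74998031, minus strand) is on chromosome 15 among its Ly6 relatives, and Cd34 (chr1:194938819-194961279, plus strand) is on chromosome 1. The SLAM members lie near each other on chromosome 1, all on the plus strand: Cd244 (chr1:171559193-171609746, annotated there as Cd244a), Cd48 (chr1:171682009-171705258) and Slamf1 (chr1:171767127-171801184), with 72.3 kb between Cd244 and Cd48 and 61.9 kb between Cd48 and Slamf1. Slamf7 (chr1:171632403-171653035, minus strand), a further SLAM receptor gene, lies between Cd244 and Cd48. Ly9, another SLAM gene, lies on the opposite strand within the span of Cd244, and no source used here says whether strand was used in counting. If it was not, reads from exon bases shared by both genes could not be told apart. Whether their exons overlap was not checked. Ly6a has close relatives in its family, so part of its reads may be shared with them and its level is uncertain to that extent.

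The 250 bases before the RefSeq start (GRCm38.p6) are printed for 2 pairs that the results below set against each other: Kit and Flt3, whose ratio separated MPP4 from MPP3, and Cd244 and Cd48, genes of a receptor and its ligand whose RNAs moved in opposite directions at 24 months. RefSeq starts can differ from the GENCODE starts above. Kit lies on the plus strand (chr5:75574737-75574986, the first of 2 listed starts), Flt3 on the minus strand (chr5:147400490-147400739), and Cd244 (chr1:171558943-171559192) and Cd48 (chr1:171681742-171681991) on the plus strand. Capitals mark matches, on either strand, to 4 motifs: AGATAA for GATA factors, TGTGGT for RUNX factors, AGGAAG for ETS factors and TTCNNNGAA for STAT factors.
Kit: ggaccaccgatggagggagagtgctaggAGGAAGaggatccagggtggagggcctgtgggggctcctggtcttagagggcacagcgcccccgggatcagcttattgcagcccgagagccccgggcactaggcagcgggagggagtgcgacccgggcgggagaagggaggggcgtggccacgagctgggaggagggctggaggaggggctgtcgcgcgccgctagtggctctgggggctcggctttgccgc
Flt3: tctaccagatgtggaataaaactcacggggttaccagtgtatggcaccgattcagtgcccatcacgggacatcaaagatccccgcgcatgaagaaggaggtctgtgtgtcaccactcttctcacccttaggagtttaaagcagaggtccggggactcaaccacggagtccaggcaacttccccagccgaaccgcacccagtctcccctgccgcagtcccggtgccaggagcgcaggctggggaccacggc
Cd244: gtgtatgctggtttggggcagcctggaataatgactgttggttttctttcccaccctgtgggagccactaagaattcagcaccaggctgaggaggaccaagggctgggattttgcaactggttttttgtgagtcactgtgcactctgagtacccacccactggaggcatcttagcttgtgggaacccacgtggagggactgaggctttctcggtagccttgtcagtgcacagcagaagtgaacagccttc
Cd48: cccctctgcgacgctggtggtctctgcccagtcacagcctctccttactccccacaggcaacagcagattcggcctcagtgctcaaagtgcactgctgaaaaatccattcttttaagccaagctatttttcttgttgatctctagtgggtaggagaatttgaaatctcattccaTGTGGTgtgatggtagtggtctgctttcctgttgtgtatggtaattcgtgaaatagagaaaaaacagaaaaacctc
Kit held 1 ETS match and Cd48 held 1 RUNX match, and none of the 4 motifs was in the windows of Flt3 and Cd244. Cd34 and Slamf1 held 1 ETS match each. Of 27025 promoter windows of the same length, 29.2% held the ETS letters, 14.2% the RUNX letters, 10.3% the GATA letters and 7.18% the STAT letters. An entry was matched for 6 of the 7 genes, with none for Ly6a.

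The deposited values are TPM, a level per transcript length that has the same total in each library. Therefore levels of different genes can be compared within a library, while the read depth is unknown. Between 10519 and 12008 genes reached 1 TPM in each library, and replicates of a group correlated at 0.988 to 0.998 over genes. A TPM is a share of the library: the median of all tested genes was itself shifted between several pairs of groups, so each comparison is also given after rescaling by median ratios, and where the call or direction then differs this is said. RNA of the targeted gene, Bcl11a, was not lost in the libraries labelled KOiMOS, but its pattern differed there. It averaged 68.2 ± 3.41 TPM in their T2 and 70.3 ± 2.48 TPM in their T1. In MPP3 of 3-month WTiMOS mice it averaged 78.5 ± 6.06 TPM in T2 and 45.2 ± 2.79 TPM in T1 (SD, n = 3 each). Its T1 level was thus higher in KOiMOS than in WTiMOS. Its mean was higher in T2 than in T1 in every WTiMOS table, but not in KOiMOS. At 24 months it averaged 39.1 TPM in T2 and 11.2 TPM in T1 MPP3, and 66.7 and 25.1 TPM in MPP4. The part of the gene that a deletion would remove is not stated. Summed Y-linked RNA also differed between T2 and T1: it averaged 162, 111 and 63.4 TPM in T2 of 24-month MPP4, 3-month MPP4 and 24-month MPP3 of WTiMOS mice, against 0.106, 0 and 0 TPM in T1. In the other tables it was 57.2 and 43.6 TPM in T2 against 111 and 73.2 TPM in T1 of KOiMOS and WTiMOS MPP3. Sex composition and T1 or T2 status cannot be told apart in the 3 tables with Y-linked RNA at or near 0 in T1. Sex composition is also mixed with cell type in T1 at 3 months, and with age in T1 MPP3 of WTiMOS mice.

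All members but Slamf1 were present in all 30 libraries. Across libraries Kit ranged from 38.1 to 418 TPM, Ly6a from 59.8 to 1621 TPM, Cd34 from 92.5 to 1448 TPM, Cd48 from 209 to 2111 TPM, Cd244 from 5.63 to 49.9 TPM and Flt3 from 19.5 to 202 TPM. Among all genes Cd48 ranked between places 60 and 794 from the top, Cd34 between places 78 and 1515, and Cd244 between places 3760 and 7919. Slamf1 reached 1 TPM in 11 libraries and was listed at 0 in 5. Of the mature lineage antigens, 13 of 14 listed genes were in the tables, and their summed level was 7.49 to 71.8 TPM, with 2 to 4 of them at 0 in a group. The highest sum came from T1 MPP3 of 3-month WTiMOS mice, at 62.1 to 71.8 TPM. RNA of the gated proteins KIT and SCA-1 was thus present in every group and that of these listed lineage antigens low, while Slamf1 was near 0 in MPP4. Mast cell and erythroid genes, which are not in that list, reached higher sums in several groups.

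**Figure D1:**
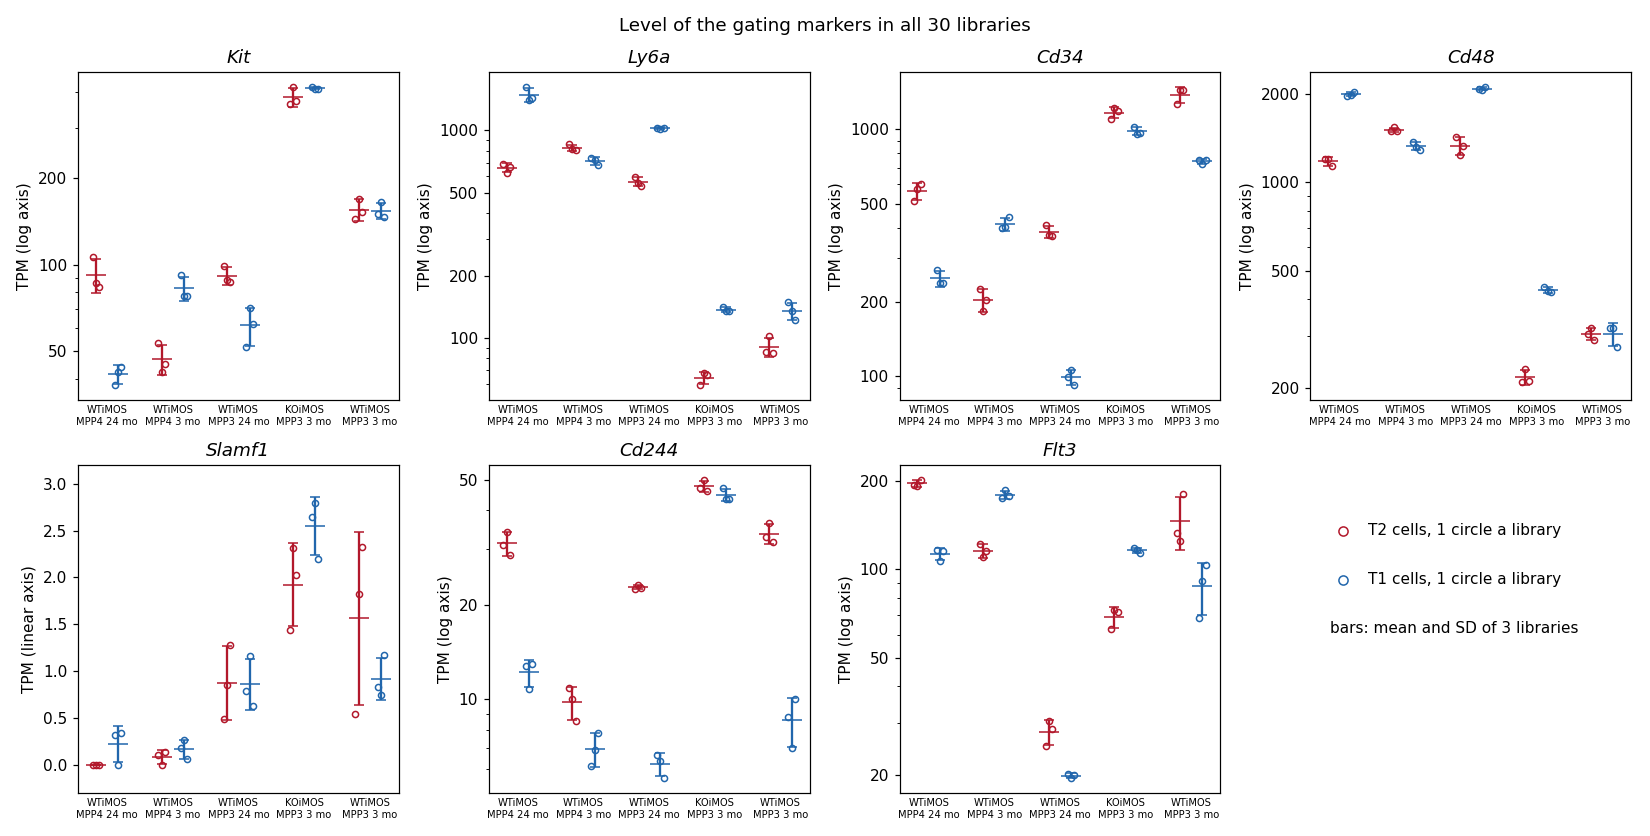
TPM of the 7 members in each library (circles), with the mean and SD of 3 libraries (bars), for T2 in red and T1 in blue in each of the 5 tables. Axes are logarithmic except for Slamf1, which lies between 0 and 2.79 TPM. Kit is highest in the libraries labelled KOiMOS, at 365 to 418 TPM, while Ly6a and Cd48 are lowest in the 3-month MPP3 tables.

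The order of the 10 groups differed between members. Kit was highest in T2 and T1 MPP3 labelled KOiMOS, at 385 ± 28.6 and 413 ± 4.03 TPM, which overlapped each other, followed by T2 and T1 MPP3 of 3-month WTiMOS mice at 156 ± 13.3 and 154 ± 9.61 TPM, which also overlapped. The lowest Kit levels, 46.8 ± 5.60 TPM in T2 MPP4 at 3 months and 41.5 ± 3.08 TPM in T1 MPP4 at 24 months, overlapped as well. Kit's highest group mean was 9.94 times its lowest. Flt3 was highest in T2 MPP4 at 24 months (196 ± 4.72 TPM) and T1 MPP4 at 3 months (179.7 ± 5.81 TPM), which did not overlap, and lowest in T2 and T1 MPP3 at 24 months (28.0 ± 2.71 and 19.9 ± 0.340 TPM), 9.87-fold between extremes. These levels and their SDs are over 3 libraries each.

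Ly6a spanned the widest range of the members, 23.0-fold between group means. Its 6 highest groups were all WTiMOS groups at 24 months or MPP4, between 566 ± 29.1 TPM in T2 MPP3 at 24 months and 1486 ± 118 TPM in T1 MPP4 at 24 months. Its 4 lowest were the 3-month MPP3 groups, between 64.7 ± 4.33 TPM in T2 and 137 ± 3.75 TPM in T1 labelled KOiMOS. Cd48 split the groups the same way: the 3-month MPP3 groups lay at 429.7 ± 9.08 TPM or below and the rest at 1177 ± 39.8 TPM or above. Cd34 ran in another order, highest in the 4 groups of 3-month MPP3, at 742 ± 16.1 to 1383 ± 104 TPM, and lowest in T1 MPP3 at 24 months, at 99.2 ± 6.68 TPM, a 13.9-fold range. Cd244 was above 20 TPM in T2 of every table but 3-month MPP4 and in T1 labelled KOiMOS, and between 12.2 ± 1.21 and 6.22 ± 0.539 TPM in the other groups. The split of Ly6a, Cd48 and Cd34 follows the tables, so the kind of cell, age and table cannot be told apart in it.

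Between T2 and T1, Cd34 rose and Ly6a fell in T2 of every table but 3-month MPP4, and Cd244 rose in T2 of every table but KOiMOS, where it did not pass. T2 was set against T1 within each table with limma on log2(TPM + 1), where a fold change of a low gene is understated, and p-values were adjusted over all genes tested. In a bulk library, fewer cells of a type and less RNA per cell cannot be told apart. In MPP4 of 24-month WTiMOS mice, 4 of the 6 tested members rose and 2 fell, where 65.2% of all tested genes were called (58.2% higher and 7% lower, or 46.1% of the calls higher after rescaling against 89.3% before) and the median gene was 0.43 (log2). In MPP4 of 3-month WTiMOS mice, 3 rose and 3 fell of 6, where 81.3% of all tested genes were called (8.71% higher and 72.6% lower, or 56.3% of the calls higher after rescaling against 10.7% before) and the median gene was -0.74. In MPP3 of 24-month WTiMOS mice, 4 rose and 2 fell of 6, where 42% of all tested genes were called (30% higher and 12% lower, or 50.6% of the calls higher after rescaling against 71.4% before) and the median gene was 0.18. In MPP3 labelled KOiMOS, 1 rose and 3 fell of 7, where 36.4% of all tested genes were called (15.9% higher and 20.4% lower) and the median gene was -0.04. In MPP3 of 3-month WTiMOS mice 3 rose and 1 fell of 7, where 14.3% of all tested genes were called (8.39% higher and 5.96% lower, or 35.1% of the calls higher after rescaling against 58.4% before) and the median gene was 0.10. Here 4 of 7 members were called against 14.3% of genes, while in 3-month MPP4 most genes were called and a count of members says little. Rescaling changed these counts in 2 tables: it left 4 members higher and none lower in 3-month MPP4, and 3 higher and 2 lower in 24-month MPP3.

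Mast cell, erythroid, megakaryocyte, macrophage and endothelial genes differed between T2 and T1 in several tables, not always in the same direction. The 12 genes of the mast cell and basophil list, all in the tables, summed to 4840 to 5210 TPM in T2 and 480.0 to 600.0 TPM in T1 labelled KOiMOS, with none at 0. They summed to 872 to 991 TPM in T2 and 2390 to 2630 TPM in T1 MPP3 at 24 months with 1 and 2 at 0. They summed to 208 to 451 against 302 to 336 TPM in T2 and T1 MPP3 of 3-month WTiMOS mice. In MPP4 they summed to 66.4 to 84.1 against 243 to 280.0 TPM in T2 and T1 at 24 months, with 7 at 0 in each, and to 54.8 to 59.7 against 31.4 to 37.5 TPM in T2 and T1 at 3 months. The 12 erythroid genes summed to 595 to 847 TPM in T2 and 88.5 to 123 TPM in T1 labelled KOiMOS. Their sum was 824 to 1080 and 48.4 to 69.4 TPM in T2 and T1 MPP3 at 24 months, and 63.1 to 218 and 13.7 to 40.7 TPM in T2 and T1 MPP3 of 3-month WTiMOS mice. In MPP4 it was 37.5 to 40.8 and 13.9 to 14.9 TPM in T2 and T1 MPP4 at 24 months, and 297 to 374 and 30 to 47.2 TPM in T2 and T1 MPP4 at 3 months. Between 0 and 2 of the 12 erythroid genes were at 0 in a group. Of the 10 genes of the megakaryocyte list, 5 of 5 tested rose in T2 MPP4 at 24 months (median log2 1.74, all genes 0.43), and 4 of 5 in T2 MPP3 at 24 months (median 1.31, all genes 0.18). In T2 MPP3 of 3-month WTiMOS mice 3 of 6 rose and 0 fell (2 rose after rescaling), in T2 labelled KOiMOS 3 rose and 1 fell of 6, and in T2 MPP4 at 3 months 1 rose and 2 fell of 4 (1 and 0 after rescaling). Their sum averaged 47.6 TPM in T2 and 11.7 TPM in T1 MPP4 at 24 months, without overlap, and was 108 to 125 TPM in T2 and 40.1 to 45.8 TPM in T1 MPP3 at 24 months, with 1 at 0 in each group. It was 442 to 497 TPM in T2 and 214 to 238 TPM in T1 MPP3 of 3-month WTiMOS mice. The sums overlapped between T2 and T1 in the other tables. The 10 endothelial and stromal genes were led in most groups by Pecam1, an adhesion molecule of endothelium that blood cells also express. They summed to 209 to 239 TPM in T2 and 155 to 165 TPM in T1 labelled KOiMOS, with 1 at 0 in each. They summed to 138 to 188 TPM in T2 and 109 to 126 TPM in T1 MPP3 of 3-month WTiMOS mice, with 4 and 3 at 0. In MPP4 at 24 months they summed to 26.9 to 27.7 TPM in T2 and 17.3 to 20.3 TPM in T1. The order was the other way in MPP4 at 3 months, at 8.07 to 8.98 TPM in T2 and 25.7 to 29.0 TPM in T1. It was also the other way in MPP3 at 24 months, at 19.8 to 20.5 TPM in T2 and 21.4 to 23.8 TPM in T1. In that T1 group Pdgfrb led the list, at 10.8 TPM. The 10 macrophage genes summed to 170 to 179 TPM in T2 and 128 to 140 TPM in T1 labelled KOiMOS. In MPP3 of 3-month WTiMOS mice they summed to 145 to 168 TPM in T2 and 204 to 250 TPM in T1. In MPP4 they summed to 57.5 to 78.5 TPM in T2 and 45.4 to 49.7 TPM in T1 at 24 months. At 3 months it was 44.4 to 52.1 TPM in T2 and 76.7 to 83.6 TPM in T1. The sums overlapped in MPP3 at 24 months. KIT is itself a mast cell receptor and CD34 is also found on endothelium, and the part of these cells in the members' differences was not tested.

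Cd34 rose in T2 in 4 of the 5 tables. In MPP3 of 24-month WTiMOS mice its RNA was 409, 372 and 370.1 TPM in T2, against 99.1, 106 and 92.5 TPM in T1 (log2 1.94, SE 0.10, adjusted p = 5.55e-08). In MPP4 of 24-month WTiMOS mice it was 512, 571 and 603 TPM in T2 and 271, 239 and 238 TPM in T1 (log2 1.17, SE 0.08, adjusted p = 4.83e-06). In MPP3 of 3-month WTiMOS mice it was 1264, 1439 and 1448 TPM in T2 and 752, 723 and 749.6 TPM in T1 (log2 0.90, SE 0.06, adjusted p = 1.12e-06). Every T2 library of these tables lay above every T1 library of the same table, and the direction was the same after rescaling. In MPP3 labelled KOiMOS the difference was smaller, at 1102, 1215 and 1189 TPM in T2 and 1024, 962 and 968 TPM in T1 (log2 0.25, SE 0.05, adjusted p = 0.00131). In MPP4 of 3-month WTiMOS mice it ran the other way, at 225, 183 and 203 TPM in T2 and 397, 402 and 439.9 TPM in T1 (log2 -1.02, adjusted p = 3.63e-08), but after rescaling it was -0.11 (adjusted p = 0.274), near the median gene of that table.

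Ly6a fell in T2 in the same 4 tables. It was 691, 626 and 668 TPM in T2, against 1621, 1405 and 1432 TPM in T1 MPP4 at 24 months (log2 -1.16, SE 0.07, adjusted p = 1.99e-06). It was 599, 558 and 542 TPM in T2 and 1027, 1010 and 1032 TPM in T1 MPP3 at 24 months (log2 -0.85, SE 0.09, adjusted p = 1.81e-05). It was 59.8, 68.0 and 66.3 TPM in T2 and 142, 135 and 135 TPM in T1 labelled KOiMOS (log2 -1.08, SE 0.06, adjusted p = 3.62e-08). The 3 T2 libraries lay below the 3 T1 libraries in each. In MPP3 of 3-month WTiMOS mice it was 85.5, 102 and 85.2 TPM in T2 and 149, 135 and 122 TPM in T1 (log2 -0.57, SE 0.11, adjusted p = 0.00470), again without overlap. In 3-month MPP4 it was higher in T2, at 857, 812 and 803 TPM in T2 and 735, 724 and 678 TPM in T1 (log2 0.21, adjusted p = 0.00277), and 1.12 higher after rescaling.

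A list of interferon response genes was set beside Ly6a. At 24 months in T2 MPP4 12 of 16 such genes were higher than in T1 and 0 lower (4 and 3 after rescaling), with a median of 0.67 against 0.43 for all genes, while Ly6a was -1.16. At 3 months in T2 MPP4 15 of 16 were lower (3 higher and 10 lower after rescaling), with a median of -1.35 against -0.74 for all genes, while Ly6a was 0.21. Usp18, a brake on interferon receptor signalling, averaged 12.9 ± 0.334 TPM in that T2 and 80.4 ± 5.96 TPM in T1 (log2 -2.55, rescaled -1.68). None of the 16 genes passed in MPP3 of 3-month WTiMOS mice, where Ly6a fell. Ly6a also fell in T2 MPP3 at 24 months, where 3 of the 16 were higher and 1 lower (2 and 5 after rescaling). Their median there was -0.09 against 0.18 for all genes. In T2 labelled KOiMOS, where Ly6a fell too, 3 of 16 were higher and 5 lower (4 and 5 after rescaling). The median there was -0.04, against -0.04 for all genes. These are counts of a list and Ly6a's own value side by side, and no test of a link was run.

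Most other Ly6 genes tested fell in T2 of 3 WTiMOS tables. In T2 MPP4 at 24 months 6 of 6 tested genes of the family were lower than in T1 (median log2 -1.75, all genes 0.43). In T2 MPP3 at 24 months 5 of 6 were lower and 1 higher (median -2.62, all genes 0.18). In T2 MPP3 of 3-month WTiMOS mice 6 of 6 were lower (median -2.43, all genes 0.10). Ly6c2, a gene of monocytes and their precursors, averaged 13.4 ± 0.461 TPM in T2 and 168 ± 11.9 TPM in T1 MPP4 at 24 months (log2 -3.54). It averaged 257 ± 14.1 TPM in T2 and 2149 ± 100.1 TPM in T1 MPP3 at 24 months (log2 -3.06). Ly6d, which marks lymphoid commitment, averaged 10.8 ± 1.56 TPM in T2 and 80.8 ± 9.99 TPM in T1 MPP3 of 3-month WTiMOS mice (log2 -2.79). It rose in T2 MPP3 at 24 months, at 167 ± 26.0 TPM against 40.3 ± 6.60 TPM in T1 (log2 2.03). In T2 labelled KOiMOS 2 of 4 were higher and none lower (3 and 0 after rescaling), while Ly6a fell there. Among the 2 was Ly6c2, at 186 ± 25.8 TPM against 100.4 ± 4.10 TPM in T1 (log2 0.88). In T2 MPP4 at 3 months 1 was higher and 4 were lower of 5, and after rescaling 2 were higher and 2 lower of 6.

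Cd48 and Cd244, ligand and receptor, moved in opposite directions in both 24-month tables. In MPP4 at 24 months Cd48 was 1200, 1201 and 1131 TPM in T2, against 1962, 1982 and 2024 TPM in T1 (log2 -0.76, SE 0.06, adjusted p = 8.18e-06). Cd244 was 31.1, 34.2 and 28.8 TPM in T2, against 12.8, 10.8 and 12.99 TPM in T1 (log2 1.30, SE 0.12, adjusted p = 2.29e-05). In MPP3 at 24 months Cd48 was 1428, 1238 and 1331 TPM in T2 and 2070, 2057 and 2111 TPM in T1 (log2 -0.64, SE 0.09, adjusted p = 1.6e-04). Cd244 was 22.5, 23.1 and 22.6 TPM in T2 and 6.67, 6.37 and 5.62 TPM in T1 of that table (log2 1.72, SE 0.13, adjusted p = 2.4e-06). No T2 library overlapped a T1 library for either gene, and rescaling kept each direction and call. With both genes on the plus strand and Cd48 outside the span of Ly9, the overlap with Ly9 concerns the values of Cd244.

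At 3 months only 1 of the pair moved in each MPP3 table. In MPP3 of WTiMOS mice Cd244 was 32.9, 36.4 and 31.7 TPM in T2, against 8.78, 6.98 and 10.02 TPM in T1 (log2 1.86, SE 0.19, adjusted p = 2.97e-05). Cd48 was 306, 320.1 and 292 TPM in T2 and 319.7, 319.8 and 274 TPM in T1, which overlapped (log2 0.01, adjusted p = 0.959, and -0.11 after rescaling). In MPP3 labelled KOiMOS Cd48 was 209, 231 and 212 TPM in T2, against 440.1, 426 and 423 TPM in T1 (log2 -0.98, SE 0.05, adjusted p = 1.58e-08). Cd244 was 47.1, 49.9 and 46.2 TPM in T2 and 47.0, 43.5 and 43.5 TPM in T1 (log2 0.09, adjusted p = 0.247). The difference between these tables in the T2 against T1 change, KOiMOS minus WTiMOS on the log2 scale, was itself tested. It was -0.99 for Cd48 (adjusted p = 1.67e-07) and -1.77 for Cd244 (adjusted p = 9.93e-06). In 3-month MPP4 both were higher in T2. Cd48 was 1489, 1536 and 1496 TPM in T2 and 1367, 1319 and 1289 TPM in T1 (log2 0.19, adjusted p = 0.00192), and Cd244 was 10.8, 10.1 and 8.52 TPM in T2 and 6.13, 6.91 and 7.84 TPM in T1 (log2 0.44, adjusted p = 0.0152). After rescaling Cd48 was 1.10 and Cd244 1.28 higher in T2 on the log2 scale. The call of Cd244 there was lost without T2 replicate 1 (log2 0.37, adjusted p = 0.05004) or T1 replicate 1 (log2 0.36, adjusted p = 0.0656).

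Slamf1, the gene of CD150, was too low in MPP4, and in MPP3 at 24 months, for T2 to be tested against T1. In the MPP3 tables of 3-month mice it was 1.44, 2.31 and 2.02 TPM in T2 and 2.65, 2.79 and 2.20 TPM in T1 labelled KOiMOS (log2 -0.29, adjusted p = 0.152). It was 0.538, 1.83 and 2.32 TPM in T2 and 0.829, 0.746 and 1.17 TPM in T1 of WTiMOS mice (log2 0.35, adjusted p = 0.582). T2 and T1 overlapped in both tables. In MPP4 at 24 months all 3 T2 libraries were listed at 0, against 0.318, 0 and 0.344 TPM in T1. Of 11 other SLAM receptors and adaptors listed, 3 rose and 3 fell of 8 tested in T2 MPP3 at 24 months. In T2 MPP4 3 rose and 0 fell of 7 at 24 months (0 and 1 after rescaling), and 1 rose and 4 fell of 6 at 3 months (3 and 0 after rescaling). Of all tested genes, 58.2% rose in T2 MPP4 at 24 months and 72.6% fell in T2 MPP4 at 3 months. In T2 labelled KOiMOS 1 rose and 1 fell of 5 (2 and 1 after rescaling). In T2 MPP3 of 3-month WTiMOS mice 0 rose and 1 fell of 6. Slamf6, a SLAM receptor of lymphocytes, fell in T2 MPP3 at both ages of WTiMOS mice, to 1.15 ± 0.545 TPM in T2 against 9.41 ± 0.329 TPM in T1 at 24 months (log2 -2.31) and to 2.79 ± 2.89 TPM in T2 against 10.01 ± 2.05 TPM in T1 at 3 months (log2 -1.78).

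Kit rose in T2 at 24 months. It was 106, 86.4 and 83.4 TPM in T2, against 38.1, 42.3 and 44.1 TPM in T1 MPP4 (log2 1.12, SE 0.11, adjusted p = 3.25e-05). It was 99.2, 88.2 and 87.1 TPM in T2, against 51.7, 70.4 and 62.0 TPM in T1 MPP3 (log2 0.58, SE 0.13, adjusted p = 0.00385). All T2 libraries lay above all T1 libraries in both tables. At 3 months Kit did not pass the test in either MPP3 table: it was 365, 418 and 373 TPM in T2 and 417, 410.4 and 410.1 TPM in T1 labelled KOiMOS (log2 -0.10, adjusted p = 0.134). In MPP3 of 3-month WTiMOS mice it was 144, 170.1 and 153 TPM in T2 and 150.0, 165 and 147 TPM in T1, which overlapped (log2 0.01, adjusted p = 0.945, and -0.10 after rescaling). In MPP4 at 3 months it was 53.1, 42.3 and 45.1 TPM in T2 and 92.0, 77.8 and 78.0 TPM in T1 (log2 -0.81, adjusted p = 1.05e-05), and after rescaling 0.09 (adjusted p = 0.492).

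Flt3 also rose in T2 at 24 months and, unlike Kit, moved at 3 months in opposite directions in the 2 MPP3 tables. It was 194, 193 and 202 TPM in T2, against 116, 106 and 116 TPM in T1 MPP4 at 24 months (log2 0.79, SE 0.07, adjusted p = 2.59e-05). It was 25.1, 30.4 and 28.5 TPM in T2 and 20.2, 19.5 and 19.9 TPM in T1 MPP3 at 24 months (log2 0.47, SE 0.12, adjusted p = 0.0101), a call that was lost after rescaling (log2 0.29, adjusted p = 0.0899) and without T2 replicate 2 (log2 0.41, adjusted p = 0.0523). It was 133, 125 and 181 TPM in T2 and 68.5, 91.1 and 103 TPM in T1 MPP3 of 3-month WTiMOS mice (log2 0.74, SE 0.16, adjusted p = 0.00900), a call that was lost without the filter on low genes (adjusted p = 0.0767). In each of these tables T2 lay above T1 without overlap. In MPP3 labelled KOiMOS it was 62.5, 72.6 and 71.6 TPM in T2 and 118, 116 and 114 TPM in T1, with T2 below T1 (log2 -0.75, SE 0.06, adjusted p = 1.37e-06). The difference of the T2 against T1 change between these tables was -1.48 on the log2 scale, KOiMOS minus WTiMOS (adjusted p = 1.11e-05). In MPP4 at 3 months Flt3 was 122, 109.9 and 115 TPM in T2 and 175, 186 and 178 TPM in T1 (log2 -0.63, adjusted p = 2.56e-06), but after rescaling it was 0.28 higher in T2 (adjusted p = 0.00981). In MPP4 at 24 months rescaling kept each member's call and direction and moved the log2 values of Flt3 to 0.37, Kit to 0.70, Cd34 to 0.74, Cd244 to 0.89, Cd48 to -1.18 and Ly6a to -1.59.

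**Figure D2:**
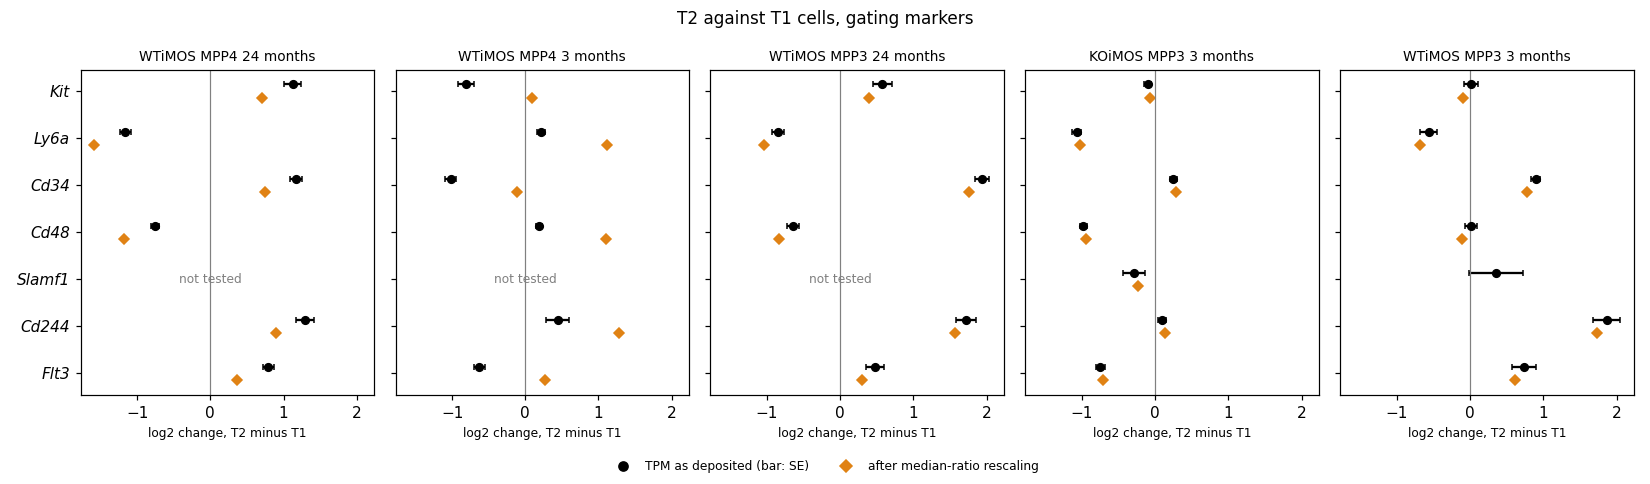
Log2 difference of T2 minus T1 for each member in the 5 tables, from limma on log2(TPM + 1) with its SE (black), and after median-ratio rescaling (orange). Cd34 is positive and Ly6a negative in every table but 3-month MPP4, where rescaling moves all members up and turns Kit and Flt3 to positive values; rescaling also turns Kit and Cd48 to negative values in MPP3 of 3-month WTiMOS mice, where neither passed the test.

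Genes that carry the signal of KIT and FLT3 moved in the direction of the median gene in both MPP4 tables. Of 19 ligands and signalling genes listed, 13 rose and 0 fell of 17 tested in T2 MPP4 at 24 months (median log2 0.60, all genes 0.43), and 5 rose after rescaling. All 18 fell in T2 MPP4 at 3 months (median -1.15, all genes -0.74), of which 9 did after rescaling. Cbl, a ubiquitin ligase that removes active receptors, averaged 1.93 ± 0.220 TPM in T2 and 13.4 ± 1.70 TPM in T1 there (log2 -2.29, rescaled -1.62), and Grb2, the adaptor to the RAS pathway, 13.6 ± 2.35 TPM in T2 and 51.4 ± 0.732 TPM in T1 (log2 -1.86, rescaled -0.99). At 24 months the same genes were higher in T2 MPP4, Cbl at 15.3 ± 3.2 TPM in T2 and 5.10 ± 0.698 TPM in T1 (log2 1.41) and Grb2 at 40.7 ± 1.76 TPM in T2 and 22.0 ± 0.777 TPM in T1 (log2 0.86). In T2 MPP3 at 24 months 7 rose and 1 fell of 18 (5 and 3 after rescaling), and in T2 labelled KOiMOS 1 rose and 6 fell. None of 18 passed in T2 MPP3 of 3-month WTiMOS mice (1 fell after rescaling). Dok2, an adaptor that restrains tyrosine kinase signalling, was among those that fell in T2 labelled KOiMOS, at 78.6 ± 3.09 TPM against 129 ± 8.15 TPM in T1 (log2 -0.70).

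Other surface genes used to divide early progenitors were counted beside Cd34. Of 14 listed, 8 rose and 3 fell of 14 in T2 MPP3 of 3-month WTiMOS mice (7 and 3 after rescaling). Of all tested genes there, 8.39% rose and 5.96% fell. In T2 MPP3 at 24 months 6 rose and 2 fell of 13 (5 and 3 of 14 after rescaling). Of all tested genes there, 30% rose and 12% fell. In T2 MPP4 at 24 months 9 rose and 3 fell of 14 (5 and 4 after rescaling). Of all tested genes there, 58.2% rose and 7% fell. At 3 months 0 rose and 9 fell of 13 in T2 MPP4 (2 and 4 after rescaling). Of all tested genes there, 8.71% rose and 72.6% fell. The 9 that rose at 24 months and the 9 that fell at 3 months were near those shares. In T2 labelled KOiMOS 5 rose and 6 fell of 13, where 15.9% of all tested genes rose and 20.4% fell. Esam, an adhesion molecule found on stem cells, rose in T2 of all 3 MPP3 tables. It averaged 15.2 ± 1.58 TPM in T2 against 2.27 ± 0.575 TPM in T1 at 24 months (log2 2.32), and 93.1 ± 2.45 TPM in T2 against 57.0 ± 3.46 TPM in T1 labelled KOiMOS (log2 0.70). It averaged 81.1 ± 10.1 TPM in T2 against 34.5 ± 8.49 TPM in T1 of 3-month WTiMOS mice (log2 1.23). Procr, the stem cell marker EPCR, averaged 16.6 ± 1.28 TPM in T2 and 2.38 ± 0.415 TPM in T1 MPP3 at 24 months (log2 2.38). It averaged 24.0 ± 3.14 TPM in T2 and 7.26 ± 1.47 TPM in T1 MPP4 at 24 months (log2 1.61). Fcgr3, an Fc receptor used to gate granulocyte and monocyte progenitors, rose in T2 of both 3-month MPP3 tables. It averaged 104 ± 3.21 TPM against 36.6 ± 3.87 TPM in T1 labelled KOiMOS (log2 1.48) and 51.9 ± 17.4 TPM against 12.1 ± 0.686 TPM in T1 of WTiMOS mice (log2 1.95).

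MPP4 was set against MPP3 of WTiMOS mice at the same age and within T2 or T1. These groups lie in separate tables, so cell type and table cannot be told apart. In T1 at 3 months summed Y-linked RNA also differed, at 0 TPM in MPP4 and 73.2 TPM in MPP3. Sex composition cannot be told apart from cell type there. At 24 months 3 of 6 tested members were higher and none lower in T2 MPP4 than in T2 MPP3, and 1 higher and 1 lower after rescaling (5 were called in a fit of all 30 libraries). There 38.8% of all tested genes were called (31.6% higher and 7.19% lower, or 41.1% of the calls higher after rescaling against 81.5% before) and the median gene was 0.25 (log2). In T1 at that age 4 were higher and 1 lower in MPP4, where 24.7% of all tested genes were called (14.6% higher and 10.1% lower, or 43.4% of the calls higher after rescaling against 59% before) and the median gene was 0.02. At 3 months 2 were higher and 4 lower in T2 MPP4 (3 and 3 after rescaling), where 82.7% of all tested genes were called (20.5% higher and 62.2% lower, or 49.9% of the calls higher after rescaling against 24.8% before) and the median gene was -1.04. In T1 at 3 months 3 were higher and 2 lower in MPP4, where 77.3% of all tested genes were called (33.3% higher and 44% lower) and the median gene was -0.17. At 3 months most genes differed between these tables, and the members' counts are near that share.

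Flt3, the gene whose protein sets MPP4 apart, was 196 ± 4.72 TPM in T2 MPP4 and 28.0 ± 2.71 TPM in T2 MPP3 at 24 months (log2 2.77, SE 0.11, adjusted p = 2.46e-08). In T1 at that age it was 113 ± 5.51 TPM in MPP4 and 19.9 ± 0.340 TPM in MPP3 (log2 2.45, SE 0.09, adjusted p = 1.72e-09). The lowest MPP4 library held 106 TPM and the highest MPP3 library 30.4 TPM, and rescaling kept both calls. At 3 months T1 again had more Flt3 in MPP4, at 179.7 ± 5.81 TPM against 87.6 ± 17.6 TPM in MPP3 (log2 1.05, SE 0.12, adjusted p = 8.45e-06). In T2 at 3 months it was 116 ± 6.12 TPM in MPP4 and 146 ± 30.1 TPM in MPP3 (log2 -0.32, adjusted p = 0.0322), while after rescaling MPP4 was higher by 0.86 (adjusted p = 4.76e-05). That call was also lost without the filter on low genes (adjusted p = 0.0977), without MPP4 T2 replicate 2 (adjusted p = 0.0913), MPP4 T2 replicate 3 (adjusted p = 0.0693) or MPP3 T2 replicate 3 (log2 -0.16, adjusted p = 0.195). MPP3 T2 replicate 3 held 181 TPM of Flt3, against 133 and 125 TPM in its other replicates.

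Ly6a and Cd48 were higher in MPP4 than in MPP3 at 3 months, by log2 differences above 2, and within 1 at 24 months. In T2 at 3 months Ly6a was 824 ± 29.2 TPM in MPP4 and 90.9 ± 9.64 TPM in MPP3 (log2 3.17, SE 0.09, adjusted p = 9.86e-13). Cd48 was 1507 ± 25.8 TPM in MPP4 and 306 ± 14.2 TPM in MPP3 (log2 2.30, SE 0.08, adjusted p = 1.99e-12). In T1 at 3 months the log2 differences were 2.39 for Ly6a and 2.12 for Cd48 (adjusted p = 4.67e-11 and 3.9e-11). After rescaling the differences in T2 at 3 months were 4.36 for Ly6a and 3.49 for Cd48. At 24 months Ly6a was 0.22 in T2 (adjusted p = 0.0673, and -0.08 after rescaling) and 0.54 in T1 (adjusted p = 1.73e-04). Cd48 at 24 months was -0.18 in T2 (adjusted p = 0.137), a value called after rescaling (log2 -0.49, adjusted p = 0.00172), and -0.06 in T1 (adjusted p = 0.443).

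Cd34 and Cd244 ran in opposite directions between the ages. At 24 months Cd34 was higher in MPP4, at 249.2 ± 18.6 TPM in T1 MPP4 and 99.2 ± 6.68 TPM in T1 MPP3 (log2 1.32, SE 0.08, adjusted p = 3.81e-07). In T2 its difference of 0.55 (adjusted p = 0.00142) was not called after rescaling (0.24, adjusted p = 0.0720). At 3 months it was lower in MPP4, at 204 ± 21.1 TPM in T2 MPP4 and 1383 ± 104 TPM in T2 MPP3 (log2 -2.76, SE 0.09, adjusted p = 2.67e-12), and -0.85 in T1 (adjusted p = 2.53e-08). Cd244 at 24 months was 12.2 ± 1.21 TPM in T1 MPP4 and 6.22 ± 0.539 TPM in T1 MPP3 (log2 0.87, SE 0.13, adjusted p = 5.84e-04). In T2 at that age the difference of 0.44 (adjusted p = 0.0144) was not called after rescaling (0.15, adjusted p = 0.401) or without MPP4 T2 replicate 2 (log2 0.38, adjusted p = 0.0765). At 3 months it was 9.80 ± 1.17 TPM in T2 MPP4 and 33.6 ± 2.46 TPM in T2 MPP3 (log2 -1.69, SE 0.16, adjusted p = 1.71e-07), and -0.26 in T1 (adjusted p = 0.196). Kit was lower in MPP4 in 3 of the 4 comparisons, at -0.54 in T1 at 24 months (adjusted p = 0.00525), -1.71 in T2 at 3 months (adjusted p = 3.85e-09) and -0.89 in T1 at 3 months (adjusted p = 1.31e-06). In T2 at 3 months rescaling moved the log2 difference of Kit to -0.54, that of Cd244 to -0.57 and that of Cd34 to -1.57, each still called. In T2 at 24 months Kit was 91.9 ± 12.3 TPM in MPP4 and 91.5 ± 6.66 TPM in MPP3, which overlapped (log2 0.00, adjusted p = 0.993, and -0.30 after rescaling). Mast cell and basophil genes summed to 243 to 280.0 TPM in T1 MPP4 and 2390 to 2630 TPM in T1 MPP3 at 24 months, and their part in the Kit difference was not tested.

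**Figure D3:**
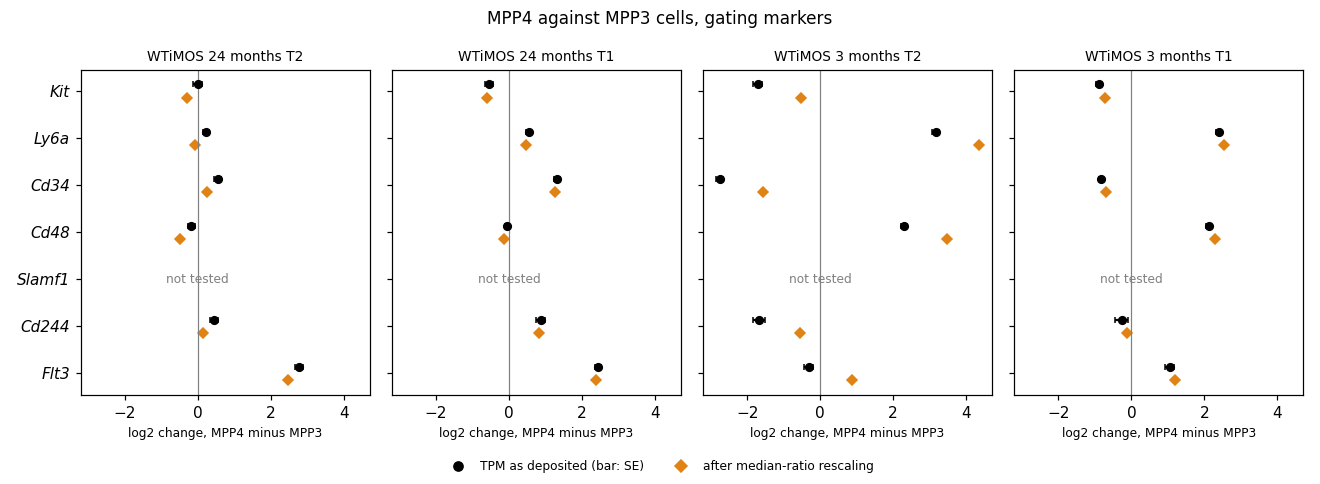
Log2 difference of MPP4 minus MPP3 of WTiMOS mice for each member, within T2 and T1 at 24 and 3 months, from limma with its SE (black) and after median-ratio rescaling (orange). Flt3 lies above 2 in both panels at 24 months. Ly6a and Cd48 lie above 2 in both panels at 3 months, and rescaling turns Flt3 in T2 at 3 months to a positive value and Kit and Ly6a in T2 at 24 months to negative ones.

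Ratios of members within a library do not depend on the scaling, and are given as descriptions. The ratio of Flt3 to Kit was higher in MPP4 than in MPP3 of WTiMOS mice without overlap in all 4 comparisons. At 24 months it was 1.83, 2.23 and 2.42 in T2 MPP4, against 0.253, 0.345 and 0.327 in T2 MPP3. In T1 at that age it was 3.04, 2.51 and 2.63 in T1 MPP4, against 0.390, 0.277 and 0.322 in T1 MPP3. At 3 months it averaged 2.48 ± 0.161 in T2 MPP4 and 0.948 ± 0.225 in T2 MPP3, and 2.19 ± 0.258 in T1 MPP4 and 0.570 ± 0.124 in T1 MPP3. In MPP4 the group means stayed between 2.16 and 2.73, whereas in MPP3 they lay below 1, so this pair of receptors kept its order where Flt3 alone did not. In MPP3 labelled KOiMOS the ratio was 0.179 ± 0.0113 in T2 and 0.281 ± 0.00325 in T1.

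The ratio of Cd34 to Ly6a separated T2 from T1 in all 5 tables. It was 7 times higher in T2 than in T1 MPP3 at 24 months (0.678 ± 0.00912 in T2 and 0.0970 ± 0.00757 in T1), and 5.06 times in MPP4 at 24 months (0.852 ± 0.0962 and 0.168 ± 0.00187). It was 2.77 times higher in MPP3 of 3-month WTiMOS mice (15.3 ± 1.51 and 5.52 ± 0.554) and 2.52 times in MPP3 labelled KOiMOS (18.1 ± 0.306 and 7.17 ± 0.0546). In MPP4 at 3 months it was 0.425 times the T1 value, at 0.247 ± 0.0193 in T2 and 0.581 ± 0.0593 in T1. Above this lay a difference between tables: the ratio was between 5.52 and 18.1 in the 3-month MPP3 groups and below 1 in every other group. The ratio of Cd244 to Cd48 was higher on average in T2 of all 5 tables. It was 5.72 times higher in MPP3 at 24 months, 4.35 times in MPP4 at 24 months and 3.93 times in MPP3 of 3-month WTiMOS mice. It was 2.12 times higher in MPP3 labelled KOiMOS and 1.24 times in MPP4 at 3 months, where the libraries overlapped. Ly6a and Cd48 held a steadier ratio to each other, between 0.297 and 0.748 in group means.

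**Figure D4:**
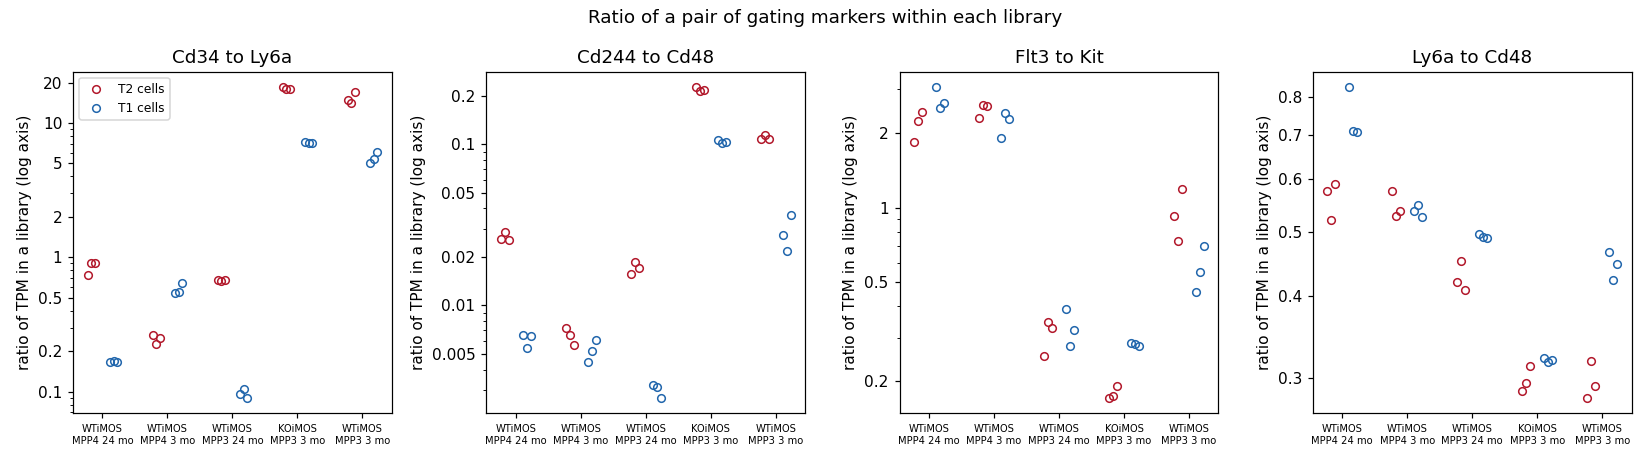
Ratios of TPM of Cd34 to Ly6a, Cd244 to Cd48, Flt3 to Kit and Ly6a to Cd48 in each library (circles) on logarithmic axes, T2 in red and T1 in blue. Group means are not drawn. Flt3 to Kit lies above 2 in the MPP4 group means and below 1 in the MPP3 group means of both ages, and Cd34 to Ly6a lies above 5 only in the 3-month MPP3 tables.

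Libraries labelled KOiMOS were set against those labelled WTiMOS in MPP3 at 3 months. They lie in separate tables, so genotype and table cannot be told apart, and Bcl11a RNA was not lost in the KOiMOS libraries. In T2, 2 of 7 members were higher and 4 lower, where 54.8% of all tested genes were called (25.9% higher and 28.9% lower) and the median gene was -0.02. In T1, 6 were higher and none lower in KOiMOS (5 after rescaling), where 66.3% of all tested genes were called (38% higher and 28.3% lower, or 45.6% of the calls higher after rescaling against 57.3% before) and the median gene was 0.13. Kit was higher in KOiMOS in both, at 385 ± 28.6 TPM in KOiMOS and 156 ± 13.3 TPM in WTiMOS T2 (log2 1.30, SE 0.08, adjusted p = 4.47e-06). It was 413 ± 4.03 TPM in KOiMOS and 154 ± 9.61 TPM in WTiMOS T1 (log2 1.42, SE 0.05, adjusted p = 7.86e-08). Mast cell and basophil genes summed to 4840 to 5210 TPM in KOiMOS T2 and 208 to 451 TPM in WTiMOS T2. They summed to 480.0 to 600.0 TPM in KOiMOS T1 and 302 to 336 TPM in WTiMOS T1. Their part in the Kit difference was not tested.

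Cd244 was also higher in KOiMOS in both, at 44.7 ± 2.04 TPM in KOiMOS and 8.59 ± 1.53 TPM in WTiMOS T1 (log2 2.26, SE 0.13, adjusted p = 9.24e-07) and 0.49 in T2 (adjusted p = 0.00324). Ly9, whose span lies inside that of Cd244 on the other strand, averaged 32.3 TPM in KOiMOS T1 and 40.1 TPM in WTiMOS T1. The remaining members depended on T2 or T1. Flt3 was -1.06 in T2 (adjusted p = 2.18e-04) and 0.42 in T1 (adjusted p = 0.0163, 0.25 with adjusted p = 0.0774 after rescaling, and adjusted p = 0.0511 without the filter). Cd48 was -0.49 in T2 and 0.50 in T1 (adjusted p = 3.03e-04 and 1.11e-04). After rescaling Cd48 was 0.33 in T1. Cd34 was -0.24 in T2 and 0.41 in T1 (adjusted p = 0.0129 and 1.65e-05, and 0.23 in T1 after rescaling), and its T2 call was lost without KOiMOS T2 replicate 1 (adjusted p = 0.0535) or WTiMOS T2 replicate 2 (adjusted p = 0.054). Ly6a was -0.48 in T2 (adjusted p = 0.00332) and 0.02 in T1 (adjusted p = 0.781, and -0.15 after rescaling). Slamf1 reached its highest level in KOiMOS T1, at 2.55 ± 0.311 TPM against 0.916 ± 0.227 TPM in WTiMOS T1 (log2 0.89, adjusted p = 0.00194), still a low level.

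The ages were compared within WTiMOS MPP3 and MPP4, again across tables, so age and table cannot be told apart. In T1 MPP3 summed Y-linked RNA averaged 0 TPM at 24 months and 73.2 TPM at 3 months, so sex composition cannot be told apart from age there. In T2 MPP3, 2 of 7 members were higher and 4 lower at 24 months (2 and 2 after rescaling), where 74.7% of all tested genes were called (24.3% higher and 50.4% lower, or 48.3% of the calls higher after rescaling against 32.6% before) and the median gene was -0.51. In T1 MPP3, 2 of 6 tested were higher and 3 lower, where 80.6% of all tested genes were called (26.3% higher and 54.3% lower, or 49% of the calls higher after rescaling against 32.6% before) and the median gene was -0.55. On the log2 scale, 24 minus 3 months, Ly6a was 2.63 in T2 and 2.91 in T1. Cd48 was 2.12 in T2 and 2.77 in T1. In the other direction, Flt3 was -2.33 in T2 and -2.06 in T1 and Cd34 -1.85 in T2 and -2.89 in T1 (adjusted p at most 3.19e-08). Kit was -0.76 in T2, a call lost after rescaling (adjusted p = 0.0801), and -1.32 in T1 (adjusted p = 2.58e-07, and -0.73 after rescaling). Cd244 was -0.54 in T2, which was not called after rescaling (-0.03, adjusted p = 0.849). The other called values kept their calls after rescaling, at 3.16 in T2 and 3.51 in T1 for Ly6a, 2.65 and 3.37 for Cd48, -1.81 and -1.48 for Flt3, and -1.32 and -2.29 for Cd34. In T2 MPP4, 4 of 6 were higher and 2 lower at 24 months (2 and 2 after rescaling), where 81% of all tested genes were called (72.6% higher and 8.33% lower, or 43.2% of the calls higher after rescaling against 89.7% before) and the median gene was 0.79. Cd34 stood at 1.46 and Cd244 at 1.58 against Ly6a at -0.32 and Cd48 at -0.36. After rescaling these were 0.50 for Cd34, 0.68 for Cd244, -1.28 for Ly6a and -1.32 for Cd48, each still called. Kit (0.96) was 0.00 and Flt3 (0.76) was -0.20 after rescaling. In T1 MPP4, 3 of 6 were higher and 3 lower, where 62.6% of all tested genes were called (7.18% higher and 55.4% lower, or 51.6% of the calls higher after rescaling against 11.5% before) and the median gene was -0.37. Ly6a stood at 1.06, Cd48 at 0.59 and Cd244 at 0.73 against Kit at -0.97, Cd34 at -0.73 and Flt3 at -0.67. Rescaling kept these calls, at 1.43 for Ly6a, 0.96 for Cd48, 1.07 for Cd244, -0.61 for Kit, -0.36 for Cd34 and -0.30 for Flt3.

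Whether the T2 minus T1 change differed between tables was tested directly, with p-values adjusted over all genes. In MPP3 at 3 months, 5 members had a lower change in KOiMOS than in WTiMOS and none a higher one, where 22.2% of all tested genes differed (7.65% higher and 14.6% lower). Between 24 and 3 months in MPP3, the change of 2 was higher at 24 months and that of 1 lower, where 18.2% of all tested genes differed (11.8% higher and 6.36% lower). In MPP4, 4 were higher and 2 lower at 24 months, where 87% of all tested genes differed (79.2% higher and 7.81% lower). Between MPP4 and MPP3, 1 was higher and 4 lower in MPP4 at 3 months, where 71.7% of all tested genes differed (7.47% higher and 64.2% lower). At 24 months 1 was higher and 1 lower in MPP4, where 22.6% of all tested genes differed (18% higher and 4.59% lower). After rescaling 3 members were called between MPP4 and MPP3 at 3 months and 4 at 24 months. Cd34 differed in all 5 tests, by -0.65 between KOiMOS and WTiMOS, 1.05 between ages in MPP3 and -0.77 between MPP4 and MPP3 at 24 months. Its rise in T2 was thus larger at 24 than at 3 months in MPP3, and larger in MPP3 than in MPP4 at 24 months. These tests set tables against each other, so genotype, age or cell type cannot be told apart from table. Summed Y-linked RNA averaged 63.4 TPM in T2 and 0 TPM in T1 MPP3 at 24 months, but 43.6 and 73.2 TPM at 3 months in WTiMOS. Sex composition is thus mixed into the difference between ages in MPP3.

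The genes whose levels ran most like each member's were ranked by Pearson's r of log2(TPM + 1) over the 10 group means, among 10092 genes. The groups share tables and scaling, so these are descriptions. For Kit they were Ttpal (0.992), Mroh1 (0.991), Usp36 (0.991), for Flt3 Gpr171 (0.941), Mei4 (0.924), H2-Ob (0.893), for Cd34 Trf (0.989), Aqp9 (0.989), Il10rb (0.988) and for Cd244 Vwa8 (0.948), Tmprss3 (0.937), Mapk6 (0.908). Ly6a had Hist2h2aa2 (0.975), Psma1 (0.972), Psma3 (0.972) and Cd48 Psma3 (0.977), Hist1h2bc (0.974), Hist2h2aa2 (0.973), and r between Ly6a and Cd48 themselves was 0.988. Flt3 and Cd244 thus had no other gene as close as the first of Kit or Cd34. Slamf1, which was low throughout, had Slc7a8 (0.963), Csf2rb (0.956), Slc18a2 (0.955).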

How the data were processed

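Total RNA of sorted bone marrow cells was made into cDNA with a low-input amplification kit, per the labels' protocols, and the authors deposited 5 tables of TPM, normalized within each library. HISAT2, StringTie and featureCounts and the build mm10 are named in the submitters' processing notes, with versions and roles not given in the sources used here. Depth is unknown, so no counting interval is given. The 7 genes and all lists were chosen with earlier results of these data known.

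Each comparison was fitted on the 6 libraries of its groups with limma 3.58.1 (R 4.3.3; trend and robust variance) on log2(TPM + 1), over genes at 1 TPM or more in at least 3 libraries, with Benjamini-Hochberg adjustment and a threshold of 0.05. Differences between T2 against T1 changes used the combined SE of both fits. The script was tested on simulated data. Every result was also computed after rescaling by median ratios, with a pseudocount of 0.1 and with all 30 libraries in 1 fit. All but the differences between T2 against T1 changes were also computed without the filter, with a replicate block and with each library left out. Genes named besides the 7 were up to 3 per list and comparison, of smallest adjusted p with at least 5 TPM in the higher group. Figures and ratios were made with Python 3.11.15.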

Additional observations from a re-analysis of the deposited data

Results flagged for a closer look

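The T2 minus T1 change (log2) of a member differed between 2 tables, by a test of the difference itself adjusted over all genes, in 21 cases. The median gene was shifted between T2 and T1 in several tables, so values after median-ratio rescaling are given where the call or direction differs. Table, and in part sex composition, cannot be told apart from genotype, age or cell type in these tests. Groups of 3 libraries were not searched for outlying samples.

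In MPP3 at 3 months, the change in KOiMOS minus that in WTiMOS was -0.51 for Ly6a (adjusted p = 0.00704), -0.65 for Cd34 (adjusted p = 1.42e-06), -0.99 for Cd48 (adjusted p = 1.67e-07), -1.77 for Cd244 (adjusted p = 9.93e-06) and -1.48 for Flt3 (adjusted p = 1.11e-05), where 22.2% of all genes differed. All 5 were lower in the libraries labelled KOiMOS, where Bcl11a RNA was not lost, and that of Ly6a was not called after rescaling (-0.35, adjusted p = 0.0645).

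Between ages, the change at 24 months minus that at 3 months in WTiMOS MPP3 was 0.56 for Kit (adjusted p = 0.0161), 1.05 for Cd34 (adjusted p = 3.36e-06) and -0.65 for Cd48 (adjusted p = 4.26e-04), where 18.2% of all genes differed. In WTiMOS MPP4 it was 1.93 for Kit (adjusted p = 5.58e-11), -1.37 for Ly6a (adjusted p = 1.88e-11), 2.19 for Cd34 (adjusted p = 5.74e-14), -0.94 for Cd48 (adjusted p = 1.61e-10), 0.86 for Cd244 (adjusted p = 2.5e-04) and 1.43 for Flt3 (adjusted p = 1.3e-11), where 87% of all genes differed. After rescaling the value of Cd244 reversed (-0.39, adjusted p = 0.0887) and that of Flt3 was not called (0.0947, adjusted p = 0.483).

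Between cell types, the change in MPP4 minus that in MPP3 of WTiMOS mice at 3 months was -0.82 for Kit (adjusted p = 1.82e-05), 0.78 for Ly6a (adjusted p = 2e-05), -1.92 for Cd34 (adjusted p = 2.39e-14), -1.42 for Cd244 (adjusted p = 1.32e-05) and -1.37 for Flt3 (adjusted p = 2.1e-06), where 71.7% of all genes differed. After rescaling the value of Kit reversed (0.20, adjusted p = 0.291), those of Cd244 (-0.45, adjusted p = 0.133) and Flt3 (-0.34, adjusted p = 0.114) were not called, and Cd48 was called (1.21, adjusted p = 1.45e-08). At 24 months it was 0.55 for Kit (adjusted p = 0.0236) and -0.77 for Cd34 (adjusted p = 2.44e-04), where 22.6% of all genes differed. After rescaling Kit was not called (0.31, adjusted p = 0.202), and Ly6a (-0.55, adjusted p = 0.00121), Cd48 (-0.35, adjusted p = 0.0176) and Cd244 (-0.68, adjusted p = 0.0106) were. Of the 5 sets of tables, those between ages in MPP4 and between cell types at 3 months involve the 3-month MPP4 table, in which the median gene of T2 was -0.74 relative to T1.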

How the results depend on the processing

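Of the 126 log2 changes of members, all kept their direction and call with a pseudocount of 0.1 and none lost a call in the fit of all 30 libraries, which added 4. An earlier fit over all libraries made too many false calls in simulations, so calls kept or added by such a fit are weak support. Without the filter 3 calls were lost, among them Flt3 for T2 against T1 in MPP3 of 3-month WTiMOS mice (adjusted p = 0.0767) and for T2 MPP4 against T2 MPP3 at 3 months (adjusted p = 0.0977). The replicate numbers did not pair the libraries, and a replicate block changed 1 call: Ly6a in T2 MPP4 against T2 MPP3 at 24 months (log2 0.22) passed with it (adjusted p = 0.0366).

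Median-ratio rescaling ended 13 calls without turning them, added 5 and reversed 13 values. Reversed for T2 against T1 were Kit (-0.10) and Cd48 (-0.11) in MPP3 of 3-month WTiMOS mice and Kit (0.092) and Flt3 (0.28) in MPP4 at 3 months. For MPP4 against MPP3 they were Flt3 in T2 at 3 months (0.86) and Kit (-0.30) and Ly6a (-0.0845) in T2 at 24 months. Others were Ly6a in KOiMOS T1 against WTiMOS T1 (-0.15), Cd244 in T1 MPP3 (0.13) and Flt3 in T2 MPP4 (-0.20) at 24 against 3 months. Of the differences between tables, Kit between KOiMOS and WTiMOS (0.039), Cd244 between ages in MPP4 (-0.39) and Kit between MPP4 and MPP3 at 3 months (0.20) reversed. The causes were not tested. Members called numbered 5 instead of 3 for T2 MPP4 against T2 MPP3 at 24 months in the fit of all libraries, and after rescaling 3 instead of 5 for the difference between MPP4 and MPP3 at 3 months and 4 instead of 2 at 24 months.

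With a library left out, 542 values kept direction and call, 9 lost a call, 3 gained one and 10 changed sign. Those that changed sign belonged to results not called with all libraries: Kit (-0.052 to 0.068) and Cd48 (-0.065 to 0.046) for T2 against T1 in MPP3 of 3-month WTiMOS mice, Kit in T2 MPP4 against T2 MPP3 at 24 months (-0.10 to 0.067), and Ly6a in T1 (-0.046 to 0.0945) and Slamf1 in T2 (-0.079 to 0.48) for KOiMOS against WTiMOS. Kit passed for T2 against T1 labelled KOiMOS without T2 replicate 2 (log2 -0.16, adjusted p = 0.00695), and Ly6a in T2 MPP4 against T2 MPP3 at 24 months without MPP3 T2 replicate 1 (0.27, adjusted p = 0.0164). Over all genes, T2 against T1 in MPP3 of 3-month WTiMOS mice gave 1682 calls, 1056 without the filter and 933 to 2197 with a library left out, lowest without T1 replicate 1 and 993 without T1 replicate 2. MPP4 against MPP3 in T1 at 24 months gave 2734 calls, and 1725 without MPP3 T1 replicate 3. After rescaling, T2 against T1 gave 5851 instead of 9176 calls in MPP4 at 3 months and 3909 instead of 7407 at 24 months. In MPP4 at 24 against 3 months it gave 5439 instead of 9128 in T2 and 4194 instead of 7095 in T1. For the differences of T2 minus T1 changes it gave 5695 instead of 9640 between ages in MPP4 and 4384 instead of 7726 between MPP4 and MPP3 at 3 months. For differences between tables no library was left out and neither the fit without the filter nor the replicate block was run. Precision is limited by 3 libraries a group and unknown depth.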

Other observations

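Transcription factors of stem and progenitor cells rose beside Cd34 in T2 MPP3 at 24 months, 13 of 18 tested rising and 1 falling (10 and 1 after rescaling). Their median log2 was 0.81, against 0.18 for all genes. In T2 MPP4 at 24 months 14 of 17 rose (6 after rescaling, with 1 falling), where 58.2% of all tested genes rose. In T2 MPP4 at 3 months 14 of 17 fell, where 72.6% of all tested genes fell, while after rescaling 7 rose and 1 fell. In T2 MPP3 of 3-month WTiMOS mice 7 rose and 2 fell of 18 (6 and 2 after rescaling). In T2 labelled KOiMOS 5 rose and 7 fell (6 and 6 after rescaling). Meis1, a homeobox factor that maintains stem cells, averaged 69.3 ± 0.434 TPM in T2 and 31.5 ± 0.892 TPM in T1 MPP4 at 24 months (log2 1.11), 57.3 ± 3.73 TPM in T2 and 20.8 ± 1.94 TPM in T1 MPP3 at 24 months (log2 1.42), and 269 ± 19.2 TPM in T2 and 147 ± 11.9 TPM in T1 MPP3 of 3-month WTiMOS mice (log2 0.87).

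The sialomucin Emcn, a relative of Cd34 in kind, rose in T2 of 4 tables, to 31.4 ± 2.65 TPM against 4.81 ± 0.821 TPM in T1 MPP4 at 24 months (log2 2.49), 43.5 ± 0.938 TPM against 19.8 ± 1.72 TPM in T1 MPP4 at 3 months (log2 1.10), 18.1 ± 3.45 TPM against 1.38 ± 0.497 TPM in T1 MPP3 at 24 months (log2 3.01) and 25.6 ± 5.74 TPM against 5.76 ± 0.929 TPM in T1 MPP3 of 3-month WTiMOS mice (log2 1.96).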
